A study of Homo sapiens with 4 samples.

Results

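The 9 genes described here encode inhibitors of cyclin-dependent kinases (CDKs) and the retinoblastoma family of pocket proteins. CDKN1B and CDKN1C belong to the Cip/Kip inhibitors, CDKN2A, CDKN2B, CDKN2C and CDKN2D to the INK4 inhibitors, and RB1, RBL1 and RBL2 are the pocket proteins. They were chosen by name, and all probes whose RefSeq transcript was paired with a member were kept. All 9 had a probe, out of 19483 genes that could be named on the array, and 12 probes read them. CDKN1B, CDKN2A and RBL1 were read by 2 probes each, and the other 6 members by 1.

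RNA of 4 cultures was hybridized to Agilent 1-color arrays, so that every condition of either line has a single array. TR9_MeTA14 and TR15_MeTA5 are stable lines derived from LNCaP, a human prostate cancer line. Each carries the Tet repressor vector pcDNA6/TR and the vector pcDNA4/TO/NFκB (AD)-MBD, so that tetracycline induces a FLAG-tagged fusion of the NFκB activation domain with a methyl-CpG binding domain. The cells were harvested after 4 days with tetracycline (+Tet) or without it (-Tet), and the comparison asks which genes respond to the induced fusion protein. The control arrays carry both vectors and differ only in tetracycline. Tetracycline-treated parental cells lacking the fusion vector were not analysed here, so that an effect of tetracycline and one of the fusion protein cannot be told apart. Each line rests on its own stable transfectant, and the lines also differ in the Tet repressor line they came from.

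CDK inhibitors bind cyclin-CDK complexes and slow the passage from G1 into S phase. INK4 proteins bind CDK4 and CDK6, whereas Cip/Kip proteins bind a wider range of cyclin-CDK complexes. Active CDKs phosphorylate the pocket proteins, which in their unphosphorylated form hold E2F transcription factors and restrain genes of DNA synthesis. In cancer cells, CpG methylation at the promoters of CDKN2A, CDKN2B and CDKN1C is a well-known form of silencing, and a methyl-CpG binding domain binds methylated CpG. Methylation itself was not analysed here.

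The CpG dinucleotides around starts of these genes are shown because they are the letters that such a domain can read when methylated. In the RefSeq promoter table on GRCh38.p14, 300 bases per entry, the median over 35116 promoters was 14 CG. The table holds entries for 8 of the 9 members, other than CDKN1C. CDKN2D had 36 CG, CDKN1B had 29 and CDKN2B had 25. CDKN2A had 26 and 28 at its 2 entries. CDKN2C had 8, 37 and 11 at its 3 entries, RBL2 had 27 and 11, and RBL1 had 25. The single RB1 entry had 0, but it lies well inside the gene and is not the start of the full-length transcript, so it says nothing about the CpG at the main RB1 promoter. Each of the other 7 members with an entry therefore had at least 1 entry above the median. The 250 bases before a start are printed below for CDKN2A and CDKN2C, with CG in capitals, in the direction of transcription. CDKN2A is shown because its 2 entries serve different proteins. Of the 3 CDKN2C entries, which differ most in CG, only the one with 37 CG is printed.
CDKN2A, chr9:21974858-21975107, minus strand: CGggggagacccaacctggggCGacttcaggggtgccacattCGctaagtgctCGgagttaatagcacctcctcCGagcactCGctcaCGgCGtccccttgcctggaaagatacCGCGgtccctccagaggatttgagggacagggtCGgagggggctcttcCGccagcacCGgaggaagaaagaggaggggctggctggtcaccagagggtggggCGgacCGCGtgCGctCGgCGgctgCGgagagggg
CDKN2A, chr9:21995325-21995574, minus strand: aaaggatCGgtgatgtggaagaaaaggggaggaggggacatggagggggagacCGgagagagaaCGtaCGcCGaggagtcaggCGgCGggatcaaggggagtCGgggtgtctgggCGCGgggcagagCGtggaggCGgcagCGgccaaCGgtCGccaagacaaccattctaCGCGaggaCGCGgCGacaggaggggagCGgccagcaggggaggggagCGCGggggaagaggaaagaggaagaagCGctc
CDKN2C, chr1:50968456-50968705, plus strand: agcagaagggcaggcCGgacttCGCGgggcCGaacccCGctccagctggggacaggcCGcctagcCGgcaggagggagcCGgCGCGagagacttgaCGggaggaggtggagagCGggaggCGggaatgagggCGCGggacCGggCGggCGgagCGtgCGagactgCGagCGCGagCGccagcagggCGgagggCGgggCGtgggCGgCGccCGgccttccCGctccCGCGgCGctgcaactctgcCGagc

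RBL1 is itself known as an E2F target, and its promoter is shown for the letters of E2F sites. The motifs TTTGGCGC, TTTCCCGC, TTTGCCGC and TTTCGCGC were searched on both strands. At least 1 of them lay in 3.31% of all promoters of this length and at least 2 in 0.145%. RBL1 held 2, TTTCGCGC and TTTGGCGC, beginning 26 and 16 bases before the start and not overlapping each other. They are in capitals below. No other member entry held these letters. A match is a description of the sequence and no evidence of binding.
RBL1, chr20:37095998-37096247, minus strand: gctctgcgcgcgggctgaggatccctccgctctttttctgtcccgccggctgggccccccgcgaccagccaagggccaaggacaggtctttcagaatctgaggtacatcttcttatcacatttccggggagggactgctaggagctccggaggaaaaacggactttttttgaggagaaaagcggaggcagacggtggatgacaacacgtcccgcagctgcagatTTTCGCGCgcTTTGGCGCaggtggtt

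Values are processed signals, that is, spot intensities from which the scanner software had subtracted background. Of 34127 non-control probes, between 20569 and 24222 were well above background per array by the flag of Feature Extraction, and no spot was saturated. The 75th percentile of the array was 617.6 and 776.6 in TR9_MeTA14 and 366.6 and 542.1 in TR15_MeTA5, -Tet and +Tet, respectively. Fold changes were taken after dividing each array by this percentile, so that a signal had to rise by more than the percentile did to count as an increase. Replicate spots gave a log2 ratio of single spots an SD of 0.087, and this leaves out any spread between cultures. Fold changes within a line have no replicate check, and precision is limited by there being 4 arrays. Changes of 2-fold are read against their share among all genes. All 11 luminal prostate markers tested as a check of LNCaP identity were well above background on all 4 arrays, KLK3 among them. The basal markers KRT5, KRT14 and TP63 and the stromal marker COL3A1 were at background on all 4. Of the others, COL1A1 and PTPRC were well above background on all 4 arrays and PECAM1 on 2.

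Among the members, CDKN1C was strongly upregulated in both lines with tetracycline, and CDKN2C was lower in both. RBL1 and RBL2 were lower by more than 2-fold in TR9_MeTA14 and by less in TR15_MeTA5, a difference for which these 4 arrays allow no test. In TR9_MeTA14, 1 of the 8 members with a fold change was higher and 3 were lower by 2-fold or more, against 16.8% and 15.1% of 15080 genes. In TR15_MeTA5, 1 was higher and 1 was lower, against 9.79% and 2.22% of 14348 genes. In both lines together, CDKN1C was the 1 member at least 2-fold higher and CDKN2C the 1 member at least 2-fold lower, against 8.21% and 0.837% of 13985 genes. With a count of 1 on either side, these shares say little about the members as a group. The median log2 fold change of the 8 members was -0.73 in TR9_MeTA14 and -0.53 in TR15_MeTA5, beside -0.06 and -0.16 over all genes compared. In RNA from a whole culture, a smaller share of cells that express a gene and less RNA per cell cannot be told apart.

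**Figure D1:**
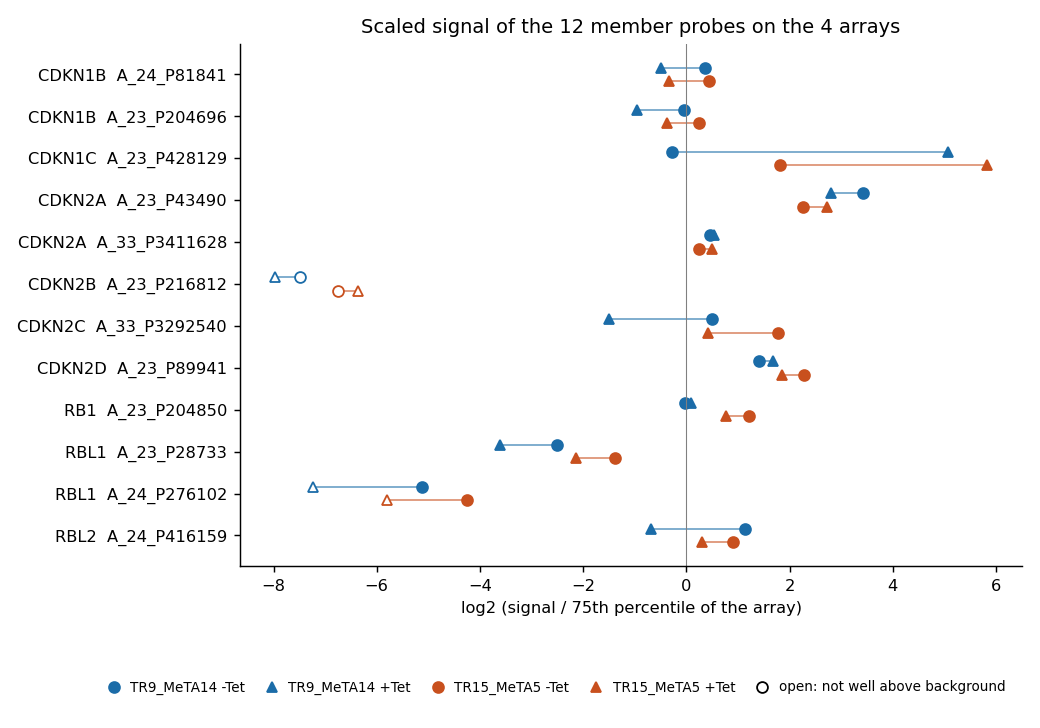
Scaled signal of the 12 member probes, as log2 of the signal over the array's 75th percentile, with circles for -Tet, triangles for +Tet, blue for TR9_MeTA14 and orange for TR15_MeTA5. Open symbols mark arrays on which a probe was not well above background, and levels should be compared within a row only. CDKN1C lies at -0.28 and 5.06 for TR9_MeTA14 and at 1.82 and 5.82 for TR15_MeTA5, the widest shift of any row, whereas both CDKN2C lines point to the left.

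CDKN1C encodes p57, a Cip/Kip inhibitor whose gene is imprinted. Its probe A_23_P428129, paired with NM_000076, was well above background on all 4 arrays. It read 510.3 in TR9_MeTA14 -Tet and 25870 in TR9_MeTA14 +Tet, with 1296 and 30640 in TR15_MeTA5. Both +Tet arrays thus lay far above both -Tet arrays. After scaling, the increase was 40.3-fold in TR9_MeTA14 and 16-fold in TR15_MeTA5, or 5.33 and 4.00 on the log2 scale. Only 164 of 15080 genes had a larger increase in TR9_MeTA14 and 176 of 14348 in TR15_MeTA5, bounds counted at their value. Ranked by the smaller of both changes, 150 of 13985 genes lay above CDKN1C. Before induction, CDKN1C was 4.28-fold higher in TR15_MeTA5 than in TR9_MeTA14, a log2 difference of 2.10 that was 1.04 with spike-in scaling. After induction the scaled log2 levels were 5.82 and 5.06, a narrower gap than without tetracycline in the scaling used.

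Over both cell lines, limma gave CDKN1C a log2 fold change of 4.67 with a standard error of 0.41 and an adjusted p of 0.0249. It was higher in 2 of 2 lines. CDKN1C was the single member probe that passed, of 11 tested, and 2.52% of 22821 probes passed in the direction of an increase. In the direction of a decrease, 0.00876% passed, which is 2 probes, and none of them read a member. At an unadjusted p below 0.05, 7 of the 11 member probes passed, beside 19.3% of all probes. They were both probes of CDKN1B, both of RBL1, and those of CDKN1C, CDKN2C and RBL2. All but the CDKN1C probe were lower. Probes of the same gene on the same arrays are not independent, so this count overstates the number of genes. The fit has 1 residual degree of freedom per probe and recovered 0% of simulated 4-fold changes, so that a member missing from its calls may still have changed. The simulation changed a much smaller share of probes than the 19.3% above, so its recovery does not measure that in these data. Under every limma setting tried, CDKN1C kept an adjusted p below the threshold.

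The genes whose profile over the 4 arrays lay closest to CDKN1C were RADIL, ARHGDIG and FGFR3, at distances of 0.63, 0.87 and 0.95 in log2 units. The distance is Euclidean between scaled log2 profiles centered on their own mean, over 12701 genes. For no other member was the nearest gene farther than 0.22, the distance of KRT19 from CDKN2C. A short distance over 4 arrays is met by many genes where a profile is nearly flat.

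CDKN1B encodes p27, the other Cip/Kip inhibitor among the members. CDKN1A, a further Cip/Kip gene, is not among the members and is not described here. Its brighter probe A_24_P81841, paired with NM_004064 and printed in 10 spots per array, read 790.5 in TR9_MeTA14 -Tet and 554.9 in TR9_MeTA14 +Tet. In TR15_MeTA5 the signals were 494.9 and 427.4. The SD of log2 signals over its spots lay between 0.05 and 0.06 on each array. The scaled signal was lower with tetracycline in both lines, 1.79-fold and 1.71-fold, which are log2 fold changes of -0.84 and -0.78. The second probe, A_23_P204696, pointed the same way, with signals of 595.3 and 399.2 in TR9_MeTA14 and 433.8 and 417.7 in TR15_MeTA5. Its log2 fold changes were -0.91 and -0.62. Over both lines, the brighter probe had a log2 fold change of -0.81 with a standard error of 0.25 in limma and did not pass (adjusted p = 0.231). Untreated, the CDKN1B levels of the lines differed by a log2 value of 0.08 by the brighter probe and 0.30 by the second. Spike-in scaling turned the value of the brighter probe to -0.98. The 2 Cip/Kip genes among the members thus had values of opposite sign in both lines.

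The protein level of p27 is set largely by its turnover, and the transcripts of that machinery were read beside it. Of 12 regulators of p27 turnover or CDKN1B transcription, 0 were higher and 1 was lower by 2-fold or more in TR9_MeTA14, where 15.1% of all genes were lower. Several lay just short of the cut-off, and 4 were lower with quantile normalization. None passed in either direction in TR15_MeTA5. CKS1B, the cofactor with which SKP2 recognizes p27, was the one past 2-fold in the scaling used, with a log2 fold change of -1.38 in TR9_MeTA14 and of -0.72 in TR15_MeTA5. SKP2 itself had -0.98 and -0.04. The median of the list was -0.72 and -0.31, and limma called 0 of the 12. In TR15_MeTA5 the direction depended on the scaling, since the median was 0.13 and 2 of 12 were below 0 with spike-in probes, against 11 of 12 in the scaling used.

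CDKN2C, which encodes p18, had the clearest decrease of any member. Probe A_33_P3292540, paired with NM_078626, read 868.5 in TR9_MeTA14 -Tet and 274.4 in TR9_MeTA14 +Tet, and 1261 and 725.2 in TR15_MeTA5. Each +Tet array lay below the -Tet array of its own line, while the raw signal of TR15_MeTA5 +Tet was not far from that of TR9_MeTA14 -Tet. The decrease was 3.98-fold and 2.57-fold after scaling, with log2 fold changes of -1.99 and -1.36. Only 30 of 13985 genes had a larger decrease by the smaller of both changes, 569 in TR9_MeTA14 and 118 in TR15_MeTA5. In limma the log2 fold change was -1.68 with a standard error of 0.29, lower in 2 of 2 lines, and it did not pass (adjusted p = 0.0858). It passed when no filter on dim probes was set (adjusted p = 0.0307). With scaling on spike-in probes the TR15_MeTA5 value was -0.93, which is short of 2-fold. Untreated CDKN2C was 2.45-fold higher in TR15_MeTA5 than in TR9_MeTA14, though its log2 difference of 1.29 was 0.23 with spike-in scaling.

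CDKN2A, which encodes p16 and from another start the ARF protein, was expressed on all 4 arrays. Probe A_23_P43490, paired with NM_058197, read 6593 and 5428 in TR9_MeTA14 and 1743 and 3573 in TR15_MeTA5, -Tet and +Tet. The lines moved apart in sign, with log2 fold changes of -0.61 and 0.47. The second probe, A_33_P3411628, paired with NM_000077, read 845.4 and 1120 in TR9_MeTA14 and 435.2 and 762.6 in TR15_MeTA5. Its log2 fold changes of 0.07 and 0.24 were both positive. The lower value of the first probe in TR9_MeTA14 was therefore not shared by the second. Which start each probe reads was not analysed, so the values do not set p16 against ARF. In limma neither probe passed, with adjusted p of 0.927 and 0.741. The untreated level was 2.25-fold lower in TR15_MeTA5 by the first probe and 1.15-fold lower by the second. With spike-in scaling the log2 difference of the first probe was -2.22 in place of -1.17.

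CDKN2B, which encodes p15 and lies next to CDKN2A on chromosome 9, was at background throughout. Probe A_23_P216812, paired with NM_004936, read 3.46 and 3.1 in TR9_MeTA14 and 3.39 and 6.55 in TR15_MeTA5. The lowest signals well above background were 15.5, 13.9, 15.4 and 19.2 on the same arrays, so no fold is given. An induced level of CDKN2B below these signals would not be detectable. Tetracycline brought its signal above background in neither line.

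CDKN2D, which encodes p19, gave small values. Probe A_23_P89941, paired with NM_001800, read 1638 and 2493 in TR9_MeTA14 and 1779 and 1964 in TR15_MeTA5. After scaling, the log2 fold change was 0.28 in TR9_MeTA14 and -0.42 in TR15_MeTA5, where the raw signal rose by less than the percentile of the array. The sign in TR15_MeTA5 depended on the scaling and became 0.01 with spike-in probes. In limma CDKN2D did not pass (adjusted p = 0.907). The 4 INK4 genes thus gave 1 decrease beyond 2-fold in both lines, 2 genes whose representing probes had opposite signs in the 2 lines, and 1 gene at background. Of those 2, CDKN2D was of 1 sign in both lines with spike-in scaling.

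**Figure D2:**
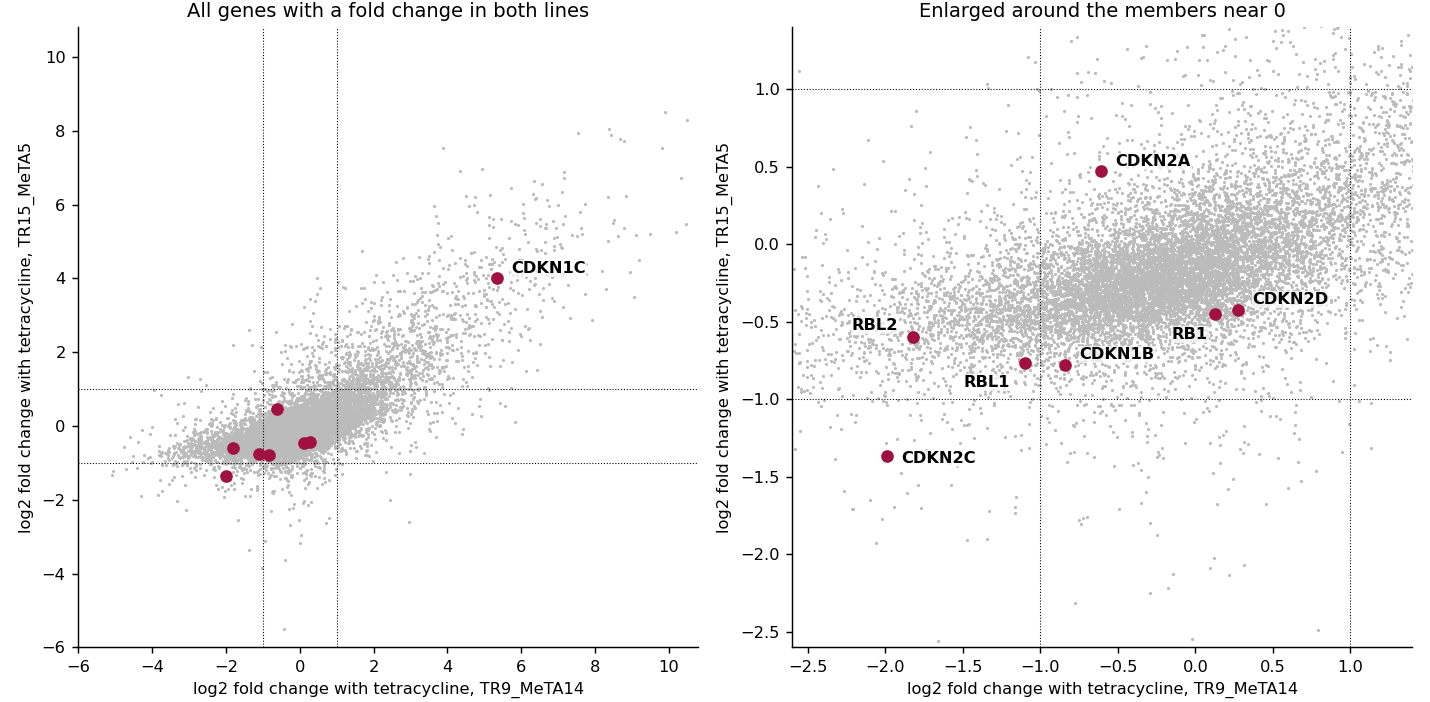
Log2 fold change with tetracycline in TR9_MeTA14 (x axis) against TR15_MeTA5 (y axis), 1 grey point per gene and red points for the 8 members with a fold change, with dotted lines at 2-fold and an enlarged view on the right. CDKN1C lies at 5.33 and 4.00, CDKN2C is the one member below both dotted lines, and CDKN2A, CDKN2D and RB1 have opposite signs in the 2 lines, CDKN2D except with spike-in scaling.

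Transcripts of known repressors and activators of the INK4 genes included some of the larger changes around the members. Of 14 compared, 4 were higher and 3 lower by 2-fold or more in TR9_MeTA14, beside 16.8% and 15.1% of all genes. In TR15_MeTA5, 3 were higher and 0 lower, beside 9.79% and 2.22%. The lower ones in TR9_MeTA14 were TWIST1, EZH2 and RNF2, with log2 fold changes of -1.88, -1.34 and -1.31. In TR15_MeTA5 these genes had -0.72, -0.59 and -0.75. CBX8 passed 2-fold in TR9_MeTA14 alone, with 2.35 there and 0.74 in TR15_MeTA5. TBX2, a T-box repressor that acts on the CDKN2A locus, read 19.2 and 10642 in TR9_MeTA14 and 112.1 and 6880 in TR15_MeTA5, an increase of at least 442-fold and of 41.5-fold. It was the 1 gene of the list that limma called (log2 fold change 7.08, standard error 0.87, adjusted p = 0.0442). ID1, an inhibitor of helix-loop-helix factors that restrains CDKN2A, had log2 fold changes of 3.56 and 1.66. SMAD3, which carries the TGF-beta signal that can raise CDKN2B, had 2.36 and 1.80. CDKN2B stayed at background on the same arrays. The medians of the list were -0.30 and -0.20, and the TR15_MeTA5 median was 0.23 with spike-in scaling.

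The genes next to CDKN1C and to the INK4 locus were read for comparison with the members they flank. Of 8 compared, 2 were higher and 1 lower by 2-fold or more in TR9_MeTA14, beside 16.8% and 15.1% of all genes. In TR15_MeTA5, 1 was higher, beside 9.79%. With spike-in scaling 4 of the 8 were higher in TR15_MeTA5, and the median there was 0.70 in place of 0.26. KCNQ1, which shares the imprinted cluster on chromosome 11 with CDKN1C, was higher in both lines by 3.17-fold and 2.19-fold (adjusted p = 0.115 in limma). PHLDA2, of the same cluster, had log2 fold changes of 1.09 and 0.66. The other chromosome 11 neighbours compared stayed short of 2-fold in both lines in the scaling used. KCNQ1OT1 had 0.37 and at least 0.78, and CD81 had 0.39 and 0.57. NAP1L4 had 0.06 and -0.44, TSSC4 had -0.10 and -0.11, and CARS1 had -0.44 and -0.04. MTAP, beside the INK4 locus, had -1.95 and -0.38. The probe of CDKN2B-AS1, the antisense transcript of that locus, was at background on all 4 arrays. None of the 8 was called by limma.

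The pocket proteins followed no common course. RB1 is the retinoblastoma protein itself, and its probe A_23_P204850, paired with NM_000321 and printed in 10 spots, read 602.8 and 827.5 in TR9_MeTA14. It read 846.4 and 916.3 in TR15_MeTA5. The log2 fold changes were 0.13 and -0.45, and the second was -0.02 with spike-in scaling, so RB1 gave the smallest values of the pocket proteins in both lines. In limma its log2 fold change was -0.16 with a standard error of 0.28 (adjusted p = 0.771). Untreated RB1 was 2.37-fold higher in TR15_MeTA5, a log2 difference of 1.24 that was 0.19 with spike-in scaling.

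RBL2 encodes p130, the pocket protein of resting cells that assembles the DREAM repressor complex. Probe A_24_P416159, paired with NM_005611, read 1356 and 482.9 in TR9_MeTA14 and 681.2 and 664.4 in TR15_MeTA5. The TR9_MeTA14 +Tet array was the lowest of the 4, and the 2 TR15_MeTA5 arrays had similar raw signals. The scaled decrease was 3.53-fold in TR9_MeTA14 and 1.52-fold in TR15_MeTA5, or -1.82 and -0.60 on the log2 scale. In limma it was -1.21 with a standard error of 0.39 and did not pass (adjusted p = 0.238).

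RBL1 encodes p107, which is made mostly in cycling cells. Its brighter probe A_23_P28733, paired with NM_002895, read 108.9 and 63.8 in TR9_MeTA14 and 141.1 and 122.6 in TR15_MeTA5. The decrease was 2.14-fold and 1.70-fold, with log2 fold changes of -1.10 and -0.77. The second probe, A_24_P276102, paired with NM_183404, read 17.7 and 5.16 in TR9_MeTA14 and 19.1 and 9.69 in TR15_MeTA5. It was well above background on the -Tet arrays alone, so that its decrease was at least 1.60-fold and at least 1.47-fold. Both RBL1 probes thus pointed down in both lines. In limma neither passed, with adjusted p of 0.233 and 0.172. The TR9_MeTA14 value of the brighter probe fell short of 2-fold with spike-in scaling, at -0.96, and with normexp background correction followed by quantile normalization, at -0.63. It also fell short with the mean over both RBL1 probes, at -0.89.

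At a cut-off of 1.5-fold, CDKN1B, CDKN2C, RBL1 and RBL2 were lower in both lines, which is 4 of 8 members beside 7.06% of 13985 genes. CDKN1C remained the 1 member higher in both, and the share of all genes higher in both was not taken at 1.5-fold. At 2-fold it was 8.21%. The count of 4 lower members rests on the scaling, since spike-in probes shift all log2 fold changes by 0.14 in TR9_MeTA14 and by 0.43 in TR15_MeTA5. The CDKN1B, RBL1 and RBL2 values in TR15_MeTA5 were then -0.34, -0.34 and -0.17.

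The partners of the inhibitors were mostly lower in TR9_MeTA14. Of 12 CDKs, cyclins and CDK activators compared, 8 were at least 2-fold lower and 0 were higher in TR9_MeTA14, with a median of -1.19, beside 15.1% of all genes lower. The count was 5 after normexp with quantile normalization. In TR15_MeTA5 1 of 11 was lower and 0 were higher, with a median of -0.43. CCNA2, the S-phase cyclin, had log2 fold changes of -2.68 and -0.75. CCNE2, a partner of CDK2, had -1.98 and -0.84. CCNH, a subunit of the CDK-activating kinase, was the one gene of the list at least 2-fold lower in both lines, with -1.46 and -1.16 (adjusted p = 0.115 in limma). CDK6, a target of INK4 proteins, was well above background on the TR9_MeTA14 -Tet array alone.

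E2F transcription factors, which the pocket proteins bind, were read in the same way. Of 10 E2F and DP factors compared, 5 were at least 2-fold lower in TR9_MeTA14 and 0 in TR15_MeTA5, and 0 were higher in either. Of all genes, 15.1% were lower in TR9_MeTA14 and 2.22% in TR15_MeTA5. After normexp with quantile normalization 3 were lower in TR9_MeTA14. E2F1 and E2F2, activators of S-phase genes, stood at -2.81 and -2.98 on the log2 scale in TR9_MeTA14, and at -0.68 and -0.65 in the other line. Of 25 E2F target genes of S phase, 13 were at least 2-fold lower in TR9_MeTA14 and 0 in TR15_MeTA5, with medians of -1.04 and -0.42. TYMS, which makes thymidylate, had -2.76 and -0.57, and CDC45, a helicase factor, had -2.84 and -0.71. Among 9 genes listed for the DREAM and MuvB complexes, 3 were lower and 1 was higher in TR9_MeTA14 and 0 passed in TR15_MeTA5. The lower ones were MYBL1, MYBL2 and FOXM1. LIN9, LIN52, LIN54 and RBBP4 stayed short of 2-fold in TR9_MeTA14 in the scaling used, at -0.99, -0.29, -0.19 and -0.48. MYBL2 had -2.16 and -0.63, and FOXM1 had -2.67 and -0.58. LIN37, a core MuvB subunit, was the one that was higher, with 1.43 and 0.68.

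None of the partner, E2F, DREAM and S-phase genes was called by limma. The TR15_MeTA5 medians of the 4 lists depended on the scaling and lay between 0.01 and 0.07 with spike-in probes. The TR9_MeTA14 medians stayed below 0 there, between -1.05 and -0.34. Most luminal prostate genes moved in the same direction. Of 11, 8 were at least 2-fold lower in TR9_MeTA14 and 0 in TR15_MeTA5, while KRT8 had 0.24 in TR9_MeTA14. Summed over all 11, the signal over the 75th percentile was 551.2 and 187.7 in TR9_MeTA14 and 721.4 and 455.9 in TR15_MeTA5, -Tet and +Tet. KLK3 was the brightest of the 11 on every array and weighs most in this sum. The sum of the 7 basal, stromal and immune markers was 0.974 and 0.882 in TR9_MeTA14 and 0.487 and 0.481 in TR15_MeTA5. The part of these shifts in the decreases of RBL1, RBL2 and CDKN2C was not tested.

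**Figure D3:**
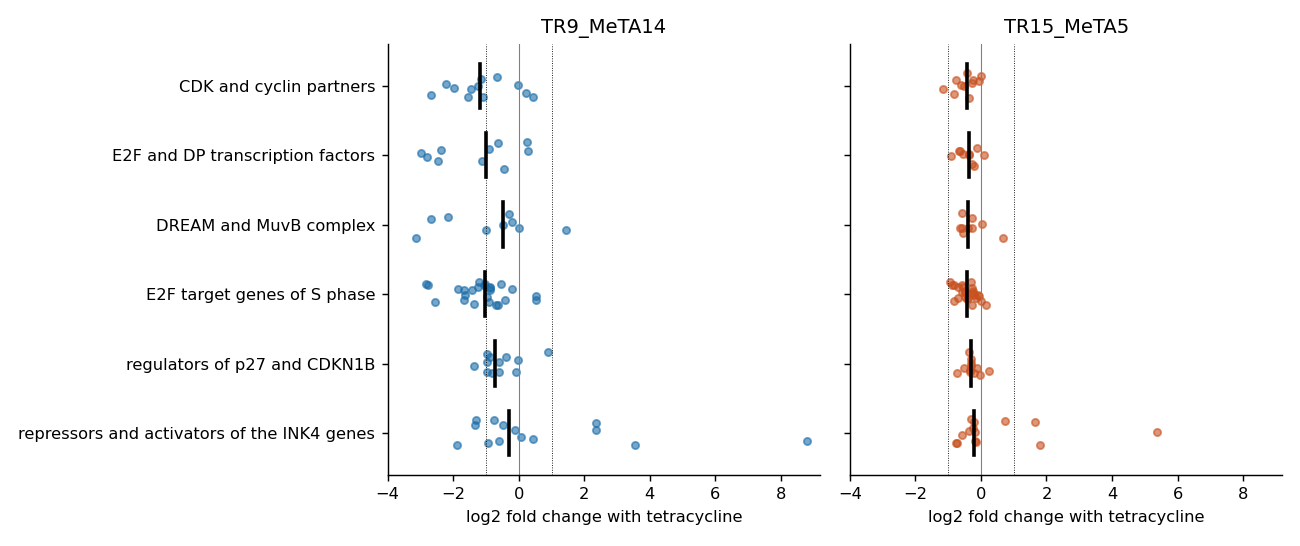
Log2 fold change with tetracycline (x axis) of the genes in 6 lists around the members, 1 point per gene, in TR9_MeTA14 (left) and TR15_MeTA5 (right), with black bars at the list median and dotted lines at 2-fold. The S-phase targets have a median of -1.04 on the left and -0.42 on the right, and TBX2 is the far right point of the last row, drawn at its lower bound in TR9_MeTA14.

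The untreated lines already differed in several members. Of 8 members with a fold change, 4 were at least 2-fold higher in TR15_MeTA5 and 1 was at least 2-fold lower, against 8.2% and 5.18% of 13799 genes. CDKN1C, CDKN2C, RB1 and RBL1 were the higher ones, at 4.28-, 2.45-, 2.37- and 2.18-fold, and CDKN2A was the lower one. The median log2 difference of the members was 1.00, beside 0.12 over all genes. CDKN2D had a log2 difference of 0.87 and RBL2 of -0.24. This comparison leaned most on the scaling of the arrays. With spike-in probes, CDKN1C remained higher at 1.04 and CDKN2A lower at -2.22, RBL2 was lower at -1.30, CDKN1B and CDKN2D turned to -0.98 and -0.18, and RBL1 was at 0.07. These 2 arrays are also the -Tet controls of the comparisons above, so the untreated difference and the response of a gene share an array.

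**Figure D4:**
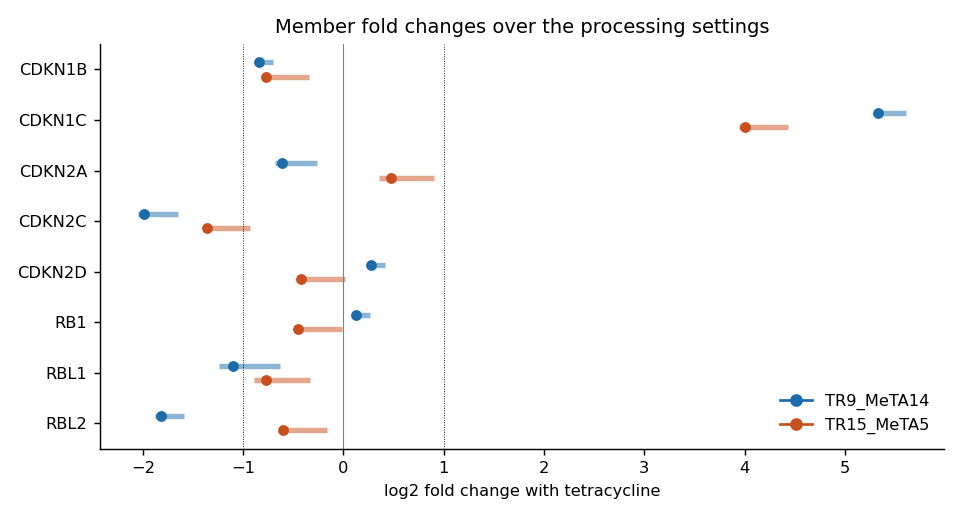
Log2 fold change with tetracycline (x axis) of the 8 members in both lines, with points for the value reported and bars for the lowest and highest value over 11 settings of scaling, filters, background correction and probe choice. CDKN1C stayed between 5.33 and 5.61 in TR9_MeTA14 and between 3.95 and 4.43 in TR15_MeTA5, whereas the bar of CDKN2D in TR15_MeTA5 reaches past 0.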

How the data were processed

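MeTA-array data of TR9_MeTA14 and TR15_MeTA5 cells with and without tetracycline were used, 1 array per condition. The authors scanned the arrays and deposited the spot intensity from Agilent Feature Extraction, which is background-subtracted and not normalized between arrays. The file header gives version 10.7.3.1 and the submitters' processing notes 9.5.1. The deposited series table repeats these values (44495 rows per array).

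The members and gene lists were chosen with earlier results of these data known. Log2 intensities of the spots of a probe were averaged without outlier spots, and the 75th percentile over non-control probes was subtracted. Probes were named through RefSeq accessions (74.5% paired with 1 gene, table on GRCh38.p14; the array design is on hg19). A gene was represented by its brightest probe over the 4 arrays. Where the dimmer array did not measure a probe well above background, the fold was taken against the higher of its own signal and the lowest signal well above background and is given as "at least". Each list gene at least 2-fold changed in both lines was named, at most 4 a direction, and other list genes were chosen after their values were seen. CDKN2AIP was dropped from the neighbours because it lies on another chromosome.

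Limma 3.58.1 (R 4.3.3) was fitted to both lines jointly, blocking on cell line and letting the variance follow intensity, on the probes that at least 2 arrays measured well above background, and p-values were adjusted by the Benjamini-Hochberg method. The lines stand in as replicates. After the block, the spread of a probe is the difference of its tetracycline response between the lines. Empirical Bayes moderation drew the variance of each probe toward that of probes of similar intensity. The p-values rest on both, and not on any spread between cultures of a line. On simulated data of 22821 probes, few of them changed, 75% of 16-fold and 0% of 4-fold changes were recovered, with 6 false calls. Alternatives were quantile normalization, median, spike-in and spot percentile scaling, normexp (offset 50) followed by quantile normalization, the series table, all spots, other filters, cut-offs of 3-fold and 1.5-fold, plain ratios, the mean over probes, no block and no trend. Normexp used median pixel intensities. Other steps ran in Python 3.11.15 (numpy 2.4.6, pandas 2.3.3).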

Additional observations from a re-analysis of the deposited data

Results flagged for a closer look

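Members whose representing probe had opposite signs in the 2 lines were singled out, and the difference was not tested, since each line has 1 array per condition. CDKN2A (probe A_23_P43490) had a log2 fold change 1.08 higher in TR15_MeTA5 than in TR9_MeTA14, and its second probe was positive in both lines. For CDKN2D (probe A_23_P89941) the difference, TR15_MeTA5 minus TR9_MeTA14, was -0.70. For RB1 (probe A_23_P204850) it was -0.58. The spot error of a log2 ratio of single spots was 0.087, and the spread between cultures is unknown.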

How the results depend on the processing

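No paired analysis was possible because each group holds 1 array, as far as replicate numbers go, and there was no replicate to leave out. The -Tet and +Tet arrays of a line are paired by the cell line block of the reported limma fit. Without this block CDKN1C had an adjusted p of 0.0470 and CDKN2C of 0.467, and 543 probes were higher and 3 lower. CDKN1C was the 1 member at least 2-fold higher in both lines under all settings tried, and its limma log2 fold change lay between 4.66 and 4.95, with adjusted p between 0.00194 and 0.0470. Of 24 single member values, 24 moved by more than the spot error with spike-in scaling, 16 with normexp followed by quantile normalization, 7 with the mean over probes, 6 with quantile normalization and 0 with the other settings. No value past 2-fold changed sign. With scaling on spike-in probes, a constant shift per array, the number of members at least 2-fold lower in both lines went from 1 to 0. At the same cut-off, the number changed in TR15_MeTA5 went from 2 to 1 and the number different between the untreated lines from 5 to 3. The last was also 3 with the mean over probes. At 3-fold these were 0, 1 and 1, and at 1.5-fold 4 members were lower in both and 5 changed in TR15_MeTA5. Of all genes, 7.06% were lower in both at 1.5-fold. For the other counts under changed settings no share of all genes was taken, so they describe the members alone. By limma, 576 probes were higher and 2 lower, or 1298 and 7 after scaling on spike-ins, 964 and 13 when the percentile was taken over spots, 162 and 0 for probes above background on all 4 arrays, and 1205 and 45 without a filter. The number lower was 8 with quantile normalization, 4 with median scaling and 9 without a trend. Without a filter 2 member probes were called, CDKN1C and CDKN2C. The cause was not tested. The series table holds the same values and is no test of stability. CDKN2B and the dimmer RBL1 probe are limited by signal over background.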
